A study of Mus musculus with 30 samples.

Results

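Expression of 8 Schwann cell and myelin genes, Mbp, Pmp22, Prx, Mag, Sox10, S100b, Ngfr and Erbb3, was followed in the healing fracture callus of lean and DIO mice. The genes were chosen by name, as known genes of the Schwann cell and its myelin, with earlier results of these data known. All 8 were found among the 43629 genes of the deposited count table. RNA-seq was performed on 30 calli of adult male C57BL/6J mice, 1 callus per library, after an open tibial fracture held by an intramedullary nail. Lean mice, fed a lean diet, gave calli at 4 times after fracture: d3, d5, d7 and also d10. DIO mice, made obese by a high-fat diet from youth until harvest, gave calli at these times and again at d14 and at d21. Each of the 10 groups had 3 mice, and for the last 2 times no lean callus was analysed here. At harvest the authors removed the soft tissue around the callus and avoided the intact bone next to it. Each library holds the RNA of every cell type in the harvested piece.

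Schwann cells ensheath the axons of peripheral nerves, and the larger axons are wrapped in compact myelin. Neuregulin on the axon, read by the receptor pair of Erbb2 and Erbb3, and the transcription factor Sox10 drive Schwann cells through development and into myelination. After nerve injury the cells leave the myelinating state, lower their myelin genes and raise Ngfr, the low-affinity neurotrophin receptor, as repair cells. Nerve fibers, many of them in the periosteum, enter the callus during bone healing. Most of the 8 genes are also known in other cells: S100b in chondrocytes and fat cells, Pmp22 in fibroblasts and epithelia, transcripts of the Mbp locus in blood cells, and Ngfr in bone marrow stromal cells. In bulk tissue a lower level of a gene from fewer cells and one from less RNA per cell cannot be told apart.

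The members fall into structural myelin genes, Schwann cell identity genes and receptors, and each is a protein-coding gene on GRCm38. Pmp22 (ENSMUSG00000018217, chr11:63128982-63159547, plus strand) encodes a membrane protein of compact peripheral myelin. Mbp (ENSMUSG00000041607) encodes the basic protein that holds the inner faces of the myelin membrane together. Mag (ENSMUSG00000036634, chr7:30899176-30914873, minus strand) encodes an adhesion protein of the innermost myelin turn, which faces the axon. Prx (ENSMUSG00000053198, chr7:27499324-27520214, plus strand) encodes periaxin, a scaffold at the outer face of the myelin sheath. S100b (ENSMUSG00000033208, chr10:76253853-76261159, plus strand) encodes a calcium-binding protein and is a common Schwann cell label. Sox10 is ENSMUSG00000033006 (chr15:79154908-79165240, minus strand), Ngfr is ENSMUSG00000000120 (chr11:95568818-95587735, minus strand) and Erbb3 is ENSMUSG00000018166 (chr10:128567523-128589652, minus strand). Exons of Prx share 300 bases, 5.38% of its exon length, with the antisense gene Gm15541, whose highest count in any library was 23, and no exon of the other 7 members is shared with another gene.

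RefSeq promoter windows on GRCm38.p6, each 250 bases before to 50 bases after a start site, were given for 5 members, Prx, Mag, S100b, Pmp22 and Ngfr. Pmp22 and Mag had more than 1 start site and window each, and only 1 of each gene is printed below. The 250 bases before the start are shown for Pmp22 and S100b, the pair of members whose levels ran most closely together, and for Mag, the only member in which a searched motif was found. All are written 5′ to 3′ on the strand of the gene, and capitals mark a motif match.
Pmp22 (chr11:63128732-63128981, plus strand): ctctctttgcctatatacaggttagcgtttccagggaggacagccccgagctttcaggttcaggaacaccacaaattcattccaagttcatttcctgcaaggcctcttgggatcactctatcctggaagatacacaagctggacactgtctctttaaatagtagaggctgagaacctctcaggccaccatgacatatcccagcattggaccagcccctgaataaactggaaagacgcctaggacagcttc
S100b (chr10:76253586-76253835, plus strand): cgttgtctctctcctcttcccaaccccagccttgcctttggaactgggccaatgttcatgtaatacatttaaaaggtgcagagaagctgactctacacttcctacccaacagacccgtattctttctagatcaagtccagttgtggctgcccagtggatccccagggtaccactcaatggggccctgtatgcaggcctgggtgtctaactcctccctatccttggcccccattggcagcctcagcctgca
Mag (chr7:30914923-30915172, minus strand): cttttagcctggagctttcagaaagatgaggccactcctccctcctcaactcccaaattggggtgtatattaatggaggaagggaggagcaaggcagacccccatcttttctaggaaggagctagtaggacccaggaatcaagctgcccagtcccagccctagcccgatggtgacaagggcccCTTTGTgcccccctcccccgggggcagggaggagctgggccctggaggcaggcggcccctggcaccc
The whole windows were searched on both strands for short motifs. ACAAAG is within the consensus that SOX factors bind, as is the sequence ACAATG, and within that of EGR factors such as Egr2 is the sequence GTGGGCG. The first was found in 2 of the 10 member windows, both of Mag and overlapping each other, as 1 match on the strand opposite to the gene, at position -67 from the start shown. Of 32817 RefSeq windows of the same length, 18.7% hold the first of these motifs, 12.6% the second and 7.97% the third. The second and the third were in no member window, which says only that these letters are not there.

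Total counts were 13247122 to 26365620 per library (median 16854427). Levels are given as CPM, read counts scaled to library size with TMM factors, and each member except Sox10 had at least 8 counts in every library. Although soft tissue was removed at harvest, 10 skeletal muscle genes summed to 485 to 32658 CPM per library. Their part in the levels of the members was not tested. One lean d10 library, replicate 1, stood apart, with a summed level of 1260 CPM for 10 skeletal muscle genes beside 12813 and 18067 CPM in the other two, 6.64 CPM for 9 lymphocyte genes beside 71.1 and 97.3 CPM, and 68378 CPM for 12 chondrocyte genes beside 12984 and 15195 CPM. Among DIO calli, d21 replicate 1 was low in the muscle genes (485 CPM beside 2960 and 15705 CPM). Counts of members that rest on these libraries are given with and without them.

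Scaled to exon length, Pmp22 was the most abundant member, with a mean of 38.3 CPM per kb over the 30 libraries. S100b followed at 16.2 CPM per kb, Mbp at 3.72 and Prx at 1.76, and Erbb3 (0.851), Ngfr (0.836) and Mag (0.810) lay close together below them. Sox10 was lowest at 0.372 CPM per kb, with 2 to 51 counts per library and under 3 counts in 1 library. Group means of Erbb3 spanned 12.1-fold and those of Prx 2.09-fold, the widest and the narrowest span among the members.

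**Figure D1:**
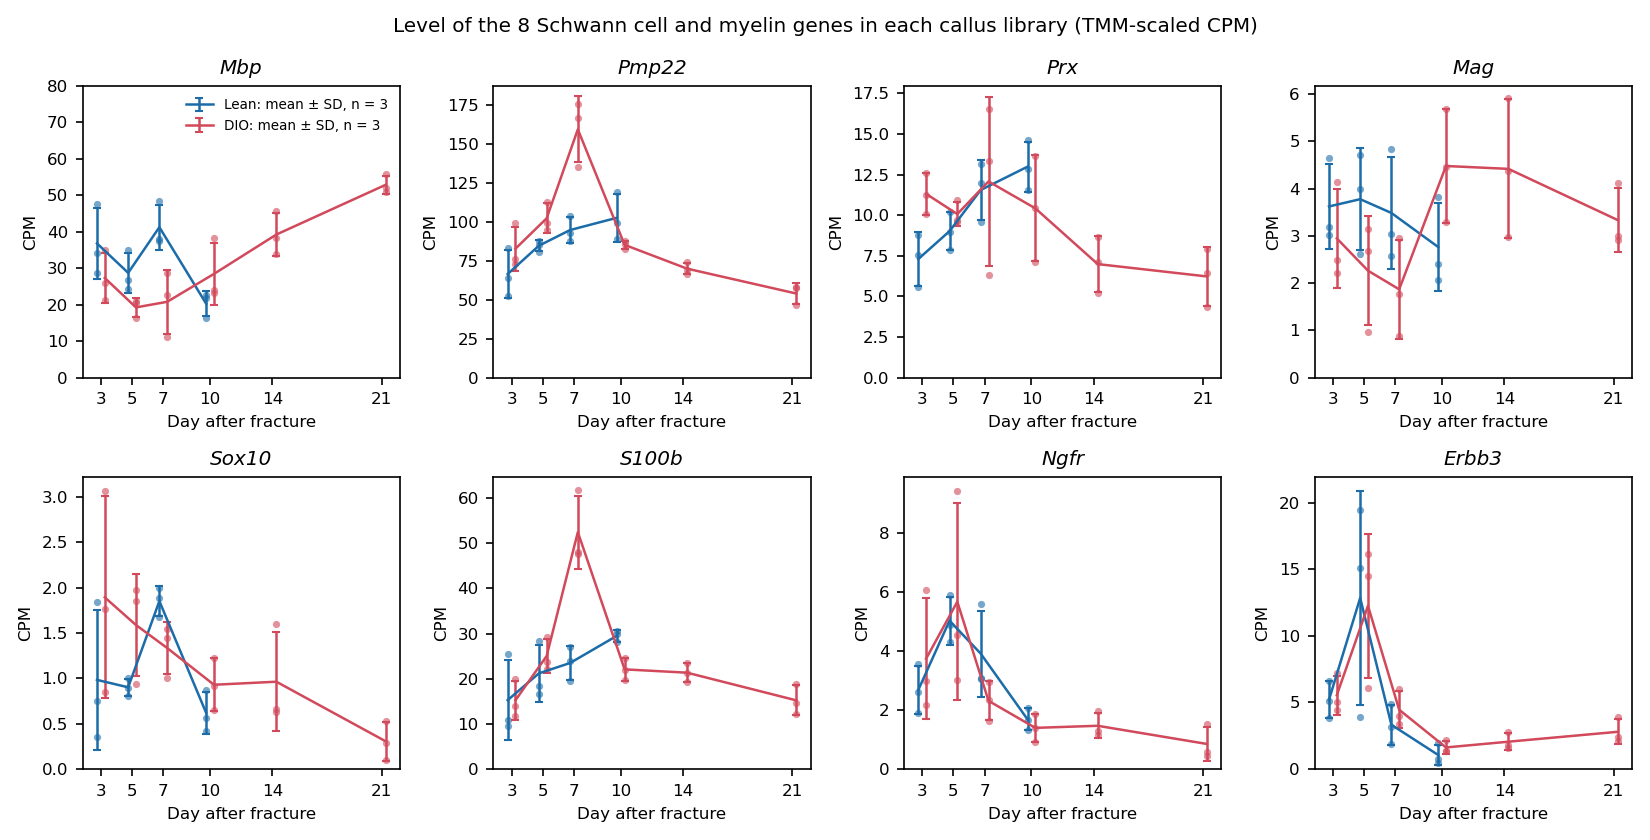
Level of each member (CPM, TMM-scaled) against the day after fracture, with 1 point per library and lines with bars for the mean ± SD of 3 mice, lean in blue and DIO in red. Pmp22 and S100b stood highest in the DIO calli of d7 (means of 159 and 52.5 CPM), Erbb3 and Ngfr had their highest means on d5 in both diets, and Mbp was highest in DIO calli of d21 (52.9 CPM).

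Pmp22 was highest in the DIO callus of d7. In lean mice its level was 63.8, 52.5 and 82.9 CPM on d3, 87.8, 80.6 and 85.3 CPM on d5, 87.7, 104 and 92.6 CPM on d7, and 119, 88.9 and 99.2 CPM on d10. In DIO mice it was 98.9, 72.7 and 76.3 CPM on d3, 94.6, 113 and 99.0 CPM on d5, 166.5, 176 and 135 CPM on d7, 87.4, 85.4 and 82.6 CPM on d10, 66.7, 74.0 and 68.9 CPM on d14, and 57.2, 58.2 and 46.3 CPM on d21. All 3 DIO libraries of d7 lay above every other library. The level fell by 0.90 ± 0.14 (log2, SE) from DIO d7 to d10 (adjusted p = 0.000461, edgeR) and was lower on d21 than on d3 (log2 fold change -0.62 ± 0.14, adjusted p = 0.00225). It differed between any of the DIO days with an adjusted p of 2.2e-06 and between any of the lean days with 0.0625, which missed the threshold of 0.05. Lean d10 exceeded lean d3 by 1.58-fold (log2 fold change 0.66 ± 0.17, adjusted p = 0.0140), a call that was lost without lean d3 replicate 2 (0.50, adjusted p = 0.0586).

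S100b was likewise highest in the DIO callus of d7. In lean mice its level was 9.55, 10.8 and 25.4 CPM on d3, 16.6, 18.5 and 28.5 CPM on d5, 19.5, 23.9 and 27.1 CPM on d7, and 29.8, 28.1 and 30.6 CPM on d10. In DIO mice it was 13.9, 20.0 and 11.7 CPM on d3, 23.7, 29.2 and 22.2 CPM on d5, 48.0, 61.8 and 47.5 CPM on d7, 19.7, 21.8 and 24.7 CPM on d10, 19.3, 21.4 and 23.4 CPM on d14, and 12.2, 14.7 and 18.8 CPM on d21. The DIO d7 group stood clear of the next highest group, lean d10, and 1 lean d3 library, replicate 3, lay far above the other two of its day. From DIO d7 to d10 the level fell by 1.25 ± 0.20 (log2, adjusted p = 0.000546). The step up from DIO d5 to d7, 1.07 ± 0.20, just missed the threshold in the edgeR fit (adjusted p = 0.0525) and passed it in DESeq2 (0.000647). Over the DIO days the gene changed with an adjusted p of 5.5e-06, while d21 against d3 gave a log2 fold change of -0.01 ± 0.20 (adjusted p = 0.986). Lean d10 was 1.98-fold above lean d3 (0.98 ± 0.33, adjusted p = 0.0431), and this call was lost in 5 of the 6 fits that left out 1 library of those days (adjusted p up to 0.157, without lean d3 replicate 2).

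Cartilage genes moved over the same days. The summed level of the 12 chondrocyte genes (Col2a1, Acan, Sox9 and others), all of them detected, was 819 to 1866 CPM in DIO d3 libraries, 9134 to 17071 CPM on d5, 17792 to 41734 CPM on d7 and 4116 to 8161 CPM on d10. In lean libraries it ran from 961 to 1523 CPM on d3 to 12984 to 68378 CPM on d10. From DIO d7 to d10, 11 of the 12 chondrocyte genes were called, all lower, where 13% of all genes were called and 7.01% were lower. Among DIO d7 calli, replicate 2 had the lowest chondrocyte sum (17792 CPM) and the highest S100b and Pmp22, and lean d10 replicate 1, with a chondrocyte sum of 68378 CPM beside 12984 and 15195 CPM, had an S100b level between theirs and the highest Pmp22 of its group (119 CPM beside 88.9 and 99.2 CPM). The part of chondrocytes in the levels of S100b and Pmp22 was not tested.

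**Figure D2:**
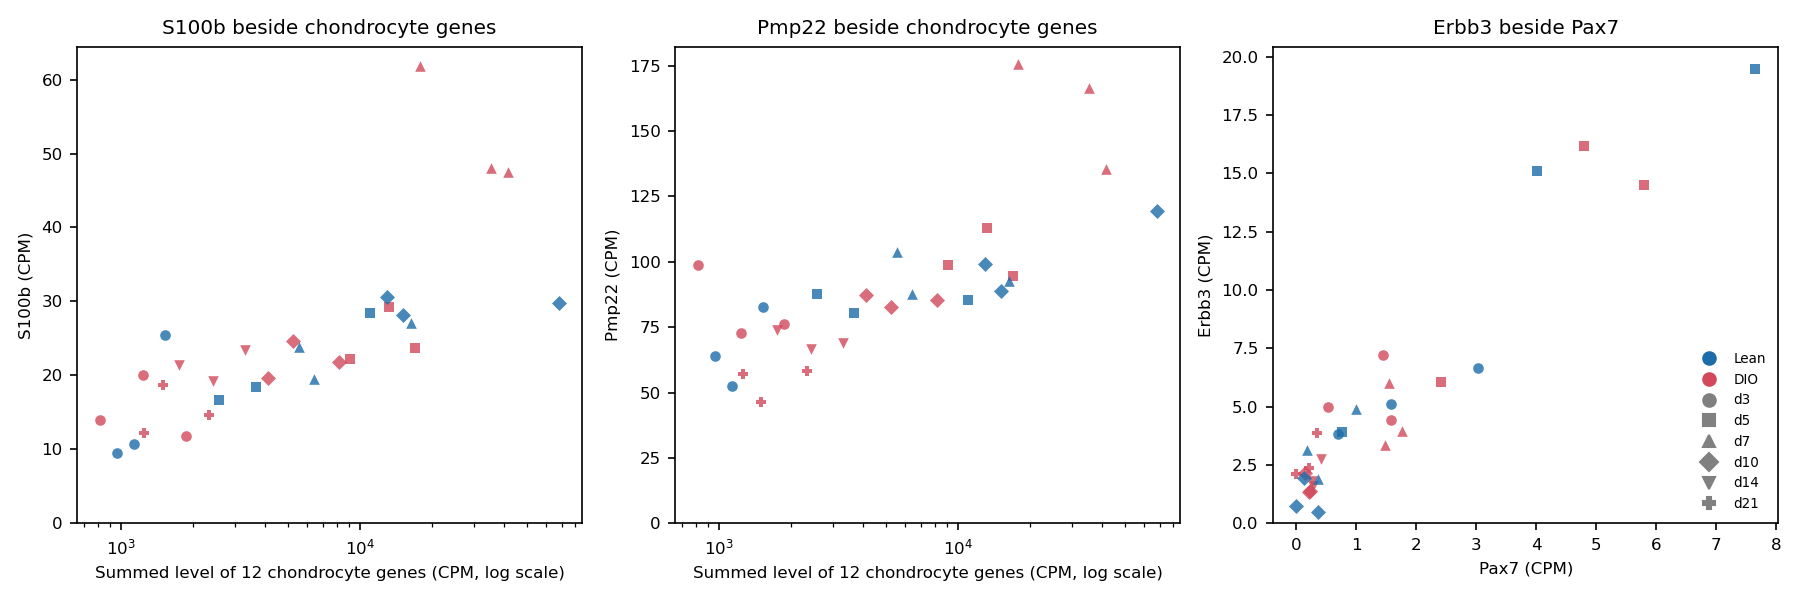
Level of S100b and of Pmp22 (CPM) against the summed level of 12 chondrocyte genes (CPM, log scale), and of Erbb3 against Pax7 (both CPM), with 1 point per library, diets by color and days by symbol. The 3 DIO d7 libraries (red triangles) lie above all others for S100b, at 47.5 to 61.8 CPM, and the 4 libraries highest in Erbb3, all of d5, are also those highest in Pax7.

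Mbp took a different course from Pmp22, lowest in the callus of lean d10, DIO d5 and DIO d7 and highest on DIO d21. In lean mice its level was 34.1, 47.6 and 28.7 CPM on d3, 24.4, 34.9 and 26.9 CPM on d5, 38.0, 48.4 and 37.4 CPM on d7, and 16.4, 22.7 and 21.7 CPM on d10. In DIO mice it was 34.9, 25.9 and 21.2 CPM on d3, 20.5, 16.3 and 21.0 CPM on d5, 22.5, 11.3 and 28.6 CPM on d7, 38.3, 23.9 and 23.1 CPM on d10, 38.2, 45.7 and 33.8 CPM on d14, and 50.9, 55.7 and 52.0 CPM on d21. The d21 libraries lay above all others of either diet. DIO d21 exceeded DIO d3 by 1.93-fold (0.95 ± 0.27, adjusted p = 0.00835), with an adjusted p of 0.0504 without DIO d3 replicate 3. Lean d10 was below lean d7 by 1.01 ± 0.21 (log2, adjusted p = 0.0356) and below lean d3 by 0.82 ± 0.21 (adjusted p = 0.0120). The call against d7 was lost without any 1 of the 3 lean d7 libraries or without lean d10 replicate 1 (adjusted p = 0.0723 to 0.122), and that against d3 without lean d3 replicate 2 (0.0592). Lymphocyte genes rose over the same DIO days, from a summed 13.3 to 22.8 CPM on d3 to 519 to 693 CPM on d21. All 9 were detected and called higher between these days, where 45.3% of all genes were called and 23.5% were higher. In lean libraries their sum was 70.6 to 73.2 CPM on d7 and 6.64 to 97.3 CPM on d10. From lean d7 to d10, where Mbp fell, 0 of the 9 were called, and 2.73% of all genes were. Their part in the level of Mbp was not tested.

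The group means of Prx and Mag spanned the least among the members, 2.09-fold and 2.40-fold. Mag lay between 0.883 and 5.92 CPM in the 30 libraries, and no comparison of days or diets called it. Its largest difference, from 1.76, 0.883 and 2.96 CPM on DIO d7 to 4.45, 5.70 and 3.29 CPM on d10, was a log2 change of 1.25 ± 0.46 without overlap (adjusted p = 0.0810, edgeR, and 0.0406 in DESeq2). Prx was 7.54, 5.56 and 8.80 CPM on lean d3 and 14.6, 12.8 and 11.5 CPM on lean d10, an increase of 1.82-fold (0.87 ± 0.22, adjusted p = 0.0119) that fell to an adjusted p of 0.0517 without lean d3 replicate 2. In DIO mice it went the other way, from 12.6, 10.1 and 11.3 CPM on d3 to 4.32, 7.93 and 6.43 CPM on d21, a fall of 0.86 ± 0.32 on the log2 scale (adjusted p = 0.0360). That call was lost in 4 of 6 fits without 1 library (adjusted p up to 0.132, without d21 replicate 1) and had an adjusted p of 0.0502 with replicate number as a block. Lean d10 and DIO d21 are different days, and this contrast between the diets was not tested.

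Erbb3 ranged from 0.481 to 19.5 CPM, and its group means spanned the largest fold among the members, 12.1. In lean mice its level was 6.65, 5.13 and 3.85 CPM on d3, 19.5, 15.1 and 3.94 CPM on d5, 4.92, 1.91 and 3.15 CPM on d7, and 0.752, 1.95 and 0.481 CPM on d10. In DIO mice it was 7.21, 5.00 and 4.42 CPM on d3, 6.07, 14.5 and 16.2 CPM on d5, 3.97, 6.03 and 3.36 CPM on d7, 1.38, 2.16 and 1.33 CPM on d10, 1.60, 2.77 and 1.80 CPM on d14, and 2.13, 3.88 and 2.38 CPM on d21. On d5 each diet had 2 libraries above all of the other days and 1 that lay within the range of d3, and the groups of d10 lay wholly below those of d3 and d5. The gene changed between days in lean (adjusted p = 0.0124) and in DIO mice (3.4e-05), with no alternative that ended either call. From d3 to d10 in lean mice it fell by 2.26 ± 0.64 (log2, adjusted p = 0.0208), and from DIO d7 to d10 by 1.45 ± 0.40 (adjusted p = 0.0231). Both were lost in some fits without 1 library, to an adjusted p of at most 0.0614 (4 of 6 fits, lean) and 0.104 (3 of 6 fits, DIO). DIO d21 stayed below d3 by 0.99 ± 0.38 (adjusted p = 0.0414), with 0.145 without d3 replicate 1 and 0.107 in a fit of all 30 libraries. The step from d3 to d5 itself, 1.33 ± 0.57 in lean and 1.14 ± 0.37 in DIO mice, did not pass (adjusted p = 0.307 and 0.140).

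Ngfr also had its highest mean on d5 in both diets. In lean mice it was 2.61, 1.90 and 3.55 CPM on d3, 4.88, 5.92 and 4.32 CPM on d5, 3.05, 3.10 and 5.61 CPM on d7, and 2.07, 1.68 and 1.32 CPM on d10. In DIO mice it was 6.07, 2.99 and 2.18 CPM on d3, 3.04, 9.44 and 4.57 CPM on d5, 1.64, 2.35 and 2.96 CPM on d7, 0.921, 1.87 and 1.40 CPM on d10, 1.16, 1.30 and 1.96 CPM on d14, and 0.461, 1.53 and 0.570 CPM on d21. The lean d5 libraries were all above those of d3, whereas DIO d5 overlapped DIO d3. The gene changed between days in both diets (adjusted p = 0.0290 in lean and 0.00159 in DIO mice), and d21 was below d3 in DIO mice by 2.13 ± 0.53 (log2, adjusted p = 0.00351). The lean call was lost in 5 of 12 fits without 1 library (adjusted p up to 0.0734, without d5 replicate 2).

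Sox10 was the scarcest member and its libraries of 1 group often differed by more than their neighbors in time. Its lean levels were 1.84, 0.359 and 0.750 CPM on d3, 1.00, 0.896 and 0.806 CPM on d5, 1.99, 1.67 and 1.89 CPM on d7, and 0.564, 0.872 and 0.420 CPM on d10. Its DIO levels ranged from 0.848 to 3.06 CPM on d3, 0.938 to 1.97 CPM on d5, 1.01 to 1.54 CPM on d7, 0.649 to 1.23 CPM on d10 and 0.634 to 1.59 CPM on d14, and were 0.288, 0.529 and 0.104 CPM on d21. All d21 libraries, with 2 to 9 counts each, lay below every other DIO library. Sox10 fell by 2.62 ± 0.61 (log2) from DIO d3 to d21 (adjusted p = 0.00209), the largest change called among the members, and the call held in every fit without 1 library. The lean rise to d7 (1.03 ± 0.52) and drop to d10 (-1.56 ± 0.54) showed no overlap but missed the threshold (adjusted p = 0.903 and 0.109).

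Counted by comparison, more members were called over long intervals than in single steps, and the same held for all genes. From lean d3 to d10, 5 of 8 were called, 3 higher (Pmp22, Prx, S100b) and 2 lower (Mbp, Erbb3), where 29.3% of all genes tested were called, 15.2% higher and 14.1% lower. The count was 3 without lean d10 replicate 1, lean d3 replicate 1 or lean d10 replicate 3, each of which lost S100b and Erbb3, and 0 without lean d3 replicate 2. Between any lean days 4 were called (Mbp, Prx, Ngfr, Erbb3), where 19% of genes were, and 2 without any 1 of 7 libraries, among them lean d10 replicate 1. From DIO d3 to d21, 6 were called, Mbp higher and Pmp22, Prx, Sox10, Ngfr and Erbb3 lower, where 45.3% of genes were (23.5% higher and 21.8% lower), and 4 without d21 replicate 1. Between any DIO days 6 were called, all but Prx (adjusted p = 0.0706) and Mag (0.104), where 59.1% of genes were, and 5 without d21 replicate 1. Of single steps, lean d7 to d10 called 1 (Mbp, lower) and none without lean d10 replicate 1 or without any 1 lean d7 library, and 2.73% of genes (1.65% lower). DIO d7 to d10 called 3, Pmp22, S100b and Erbb3, all lower, and 13% of genes (7.01% lower). The median log2 fold change of the 8 members was -0.62 in that step and -0.02 over all genes.

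**Figure D3:**
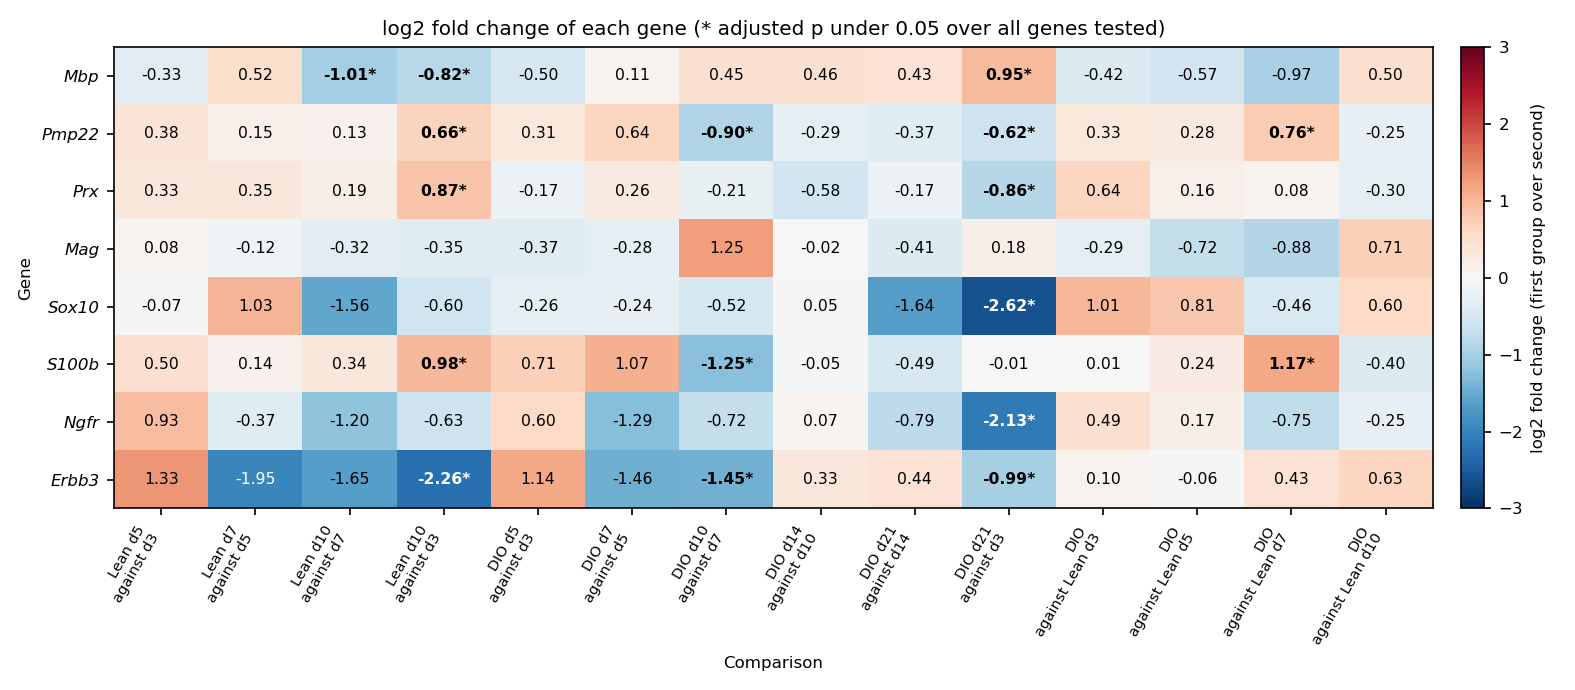
log2 fold change of the 8 members in the 14 comparisons of 2 groups, red for higher and blue for lower in the group named first, with an asterisk at an adjusted p under 0.05 (edgeR, over all genes tested). Calls are found in lean d10 against d7 and d3, DIO d10 against d7, DIO d21 against d3 and DIO against lean on d7, and no member is called in the other 9.

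The remaining steps called no member in the edgeR fit. From lean d3 to d5 and d5 to d7, 3 and 2 members had an unadjusted p under 0.05, where 0.449% and 0% of genes were called, and DESeq2 called none either. From DIO d3 to d5 and d5 to d7, 3 and 4 members had an unadjusted p under 0.05, DESeq2 called 1 and 3 of them, and 1.68% and 0.0177% of genes were called in edgeR. From DIO d10 to d14 no member had an unadjusted p under 0.05 (0.759% of genes called, none of the members in DESeq2). From DIO d14 to d21, 3 did, DESeq2 called 1, and 19.6% of genes were called in edgeR.

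Between the diets, 2 of the 8 members were called on d7. S100b was 2.25-fold higher in DIO than in lean calli, 52.5 ± 8.08 against 23.5 ± 3.79 CPM (SD, n = 3 mice each; log2 fold change 1.17 ± 0.19, adjusted p = 0.0199). Pmp22 was 1.70-fold higher, 159 ± 21.1 against 94.6 ± 8.13 CPM (0.76 ± 0.17, adjusted p = 0.0469). The 2 were called where 2.32% of genes were (1.4% higher), and for both every DIO library lay above every lean one. S100b lost its call without lean d7 replicate 1 (adjusted p = 0.0833) or replicate 2 (0.119), and Pmp22 lost it in 5 of 6 such fits (adjusted p up to 0.191, without lean d7 replicate 2) and with the replicate number as a block (0.0861). Mbp was lower in every DIO library of d7 than in any lean one (11.3 to 28.6 against 37.4 to 48.4 CPM; -0.97 ± 0.30), as were Ngfr and Sox10, with adjusted p-values of 0.138, 0.385 and 0.627. In all, 5 of 8 members did not overlap between the diets on d7, where 22.1% of genes did not. The chondrocyte sum on that day was 17792 to 41734 CPM in DIO and 5578 to 16423 CPM in lean libraries, with 3 of 12 genes called, all higher in DIO mice.

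On d3, d5 and d10 no member was called between the diets, with 1, 2 and 1 members at an unadjusted p under 0.05 and 0%, 1.08% and 0% of genes called in edgeR, and DESeq2 called no member either. The test of whether the diet difference changed between d3 and d10 called no member and 1.65% of genes. Its lowest adjusted p was 0.0773 for Pmp22, followed by 0.115 for S100b and 0.133 for Mbp, and DESeq2 called 3 members. The difference between d7 and d10 alone was not tested.

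The 8 genes did not rise and fall as a block. Over the 30 libraries the 28 pairs of members had Pearson correlations of log2 CPM between -0.71 and 0.80, with a median of 0.06. After adjustment over the pairs 11 passed (permutation test, two-sided), 7 positive and 4 negative, and 9 passed by Spearman's rho. Pmp22 and S100b ran most closely together (r = 0.80, rho = 0.75, adjusted p = 0.00028 for each, from a permutation p of 1e-05, the smallest possible; r = 0.70 without the 2 libraries farthest from the median of Pmp22). Ngfr with Erbb3 (r = 0.67, rho = 0.68, permutation p adjusted 0.000467 and 0.000933, 0.65 without 2 libraries) and Sox10 with Ngfr (r = 0.65, rho = 0.60, adjusted 0.00063 and 0.00448, 0.53) were next. Mbp was opposed to Pmp22 (r = -0.71, rho = -0.63, permutation p adjusted 0.00028 and 0.00147, -0.60 without 2 libraries) and ran with Mag (r = 0.61, rho = 0.51, adjusted 0.00168 and 0.0191, 0.47). Libraries of a group share diet and day, and correlations of the deviations from the group means were smaller in each of these pairs, 0.32 for Pmp22 with S100b, 0.38 for Ngfr with Erbb3, 0.39 for Sox10 with Ngfr, -0.32 for Mbp with Pmp22 and 0.56 for Mbp with Mag. Within groups Prx ran with Mag (0.58) and Sox10 with Erbb3 (0.52).

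**Figure D4:**
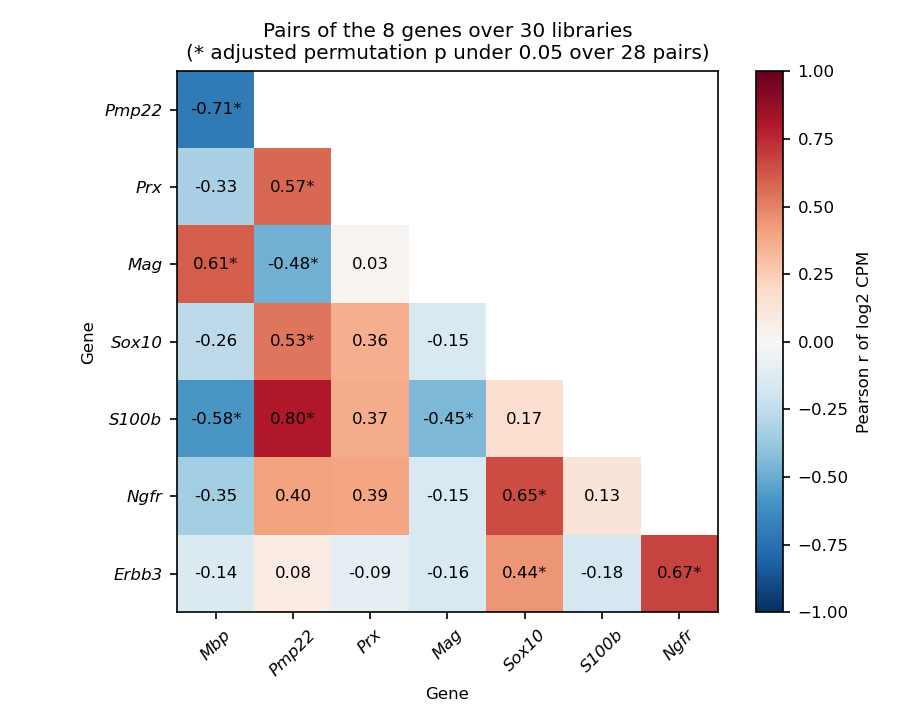
Pearson correlation of log2 CPM between each pair of members over 30 libraries, red for positive and blue for negative, with an asterisk at an adjusted permutation p under 0.05 over the 28 pairs. The strongest colors are those of Pmp22 with S100b (0.80) and of Mbp with Pmp22 (-0.71).

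The genes most like each member were sought among 17356 other genes by the same correlation over the 30 libraries, as a description. Mbp was closest to Rcsd1 (r = 0.92), Ptk2b (0.92) and Fcho1 (0.91). Pmp22 was closest to Prnp (0.90), the prion protein gene, 1500015O10Rik (0.90) and Klhl13 (0.89), and S100b to Fibin (0.88), Colgalt2 (0.86) and Ntan1 (0.85). Erbb3 was closest to Pax7 (0.86), the transcription factor of muscle satellite cells, then Iqsec3 (0.86) and Arpp21 (0.85). Pax7 had group means of 4.14 CPM on lean d5 and 4.33 CPM on DIO d5, at most 1.77 CPM in the other groups, and no counts in 2 libraries. Ngfr was closest to Sfrp2 (0.88), a secreted Wnt modulator, Susd2 (0.86) and Anpep (0.85), and Sox10 to Rab15 (0.79), Prr29 (0.77) and Gap43 (0.77), a growth-associated gene of axons and repair Schwann cells. Mag was closest to Mfng (0.81), Hpcal1 (0.80) and Engase (0.78), and Prx to Cul9 (0.84), Tcf7l1 (0.83) and Sirt6 (0.82). No member was among the 3 genes most like another.

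Other genes of myelinating Schwann cells moved in both directions. Of a list of 20 (Ncmap, Egr2, Drp2 and others) 18 were tested over the DIO days, and 11 were called between d3 and d21, 8 lower and 3 higher, with a median log2 fold change of -1.40 against 0.03 over all genes, of which 45.3% were called, 21.8% lower and 23.5% higher. The genes that fell included Egr2 (-1.27), the myelin transcription factor, Cldn19 (-3.01), Drp2 (-1.60), the partner of periaxin, and Dhh (-3.69), a Schwann cell hedgehog signal. The 3 that rose were Cnp (1.12), Ugt8a (2.73) and Sh3tc2 (3.79), and Ugt8a lost its call in 4 of 11 alternatives. From DIO d7 to d10, 5 of 18 were called, all lower, where 7.01% of all genes were called lower and 11 of the 12 chondrocyte genes fell (median -3.02). The list median was -0.14, and the genes called were Ncmap (-2.81), Gjc3 (-3.80), Gal3st1 (-1.57), Cmtm5 (-3.89) and Gldn (-3.06). Ncmap had means of 1.25, 22.5, 45.8 and 6.53 CPM on DIO d3, d5, d7 and d10, in the same order over these days as the means of S100b.

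Between the diets on d7, 4 of 15 tested genes of this list, Ncmap (1.82), Gjc3 (2.89), Cmtm5 (3.24) and Gldn (1.87), were called higher in DIO mice, where 1.4% of all genes were, although the list's median log2 fold change was -0.23. Ncmap and Gldn lost their calls in 6 of 11 alternatives each, Gjc3 in 5 and Cmtm5 in 1. From lean d3 to d10, 5 of 16 were called, all higher, Ncmap (5.64), Gjc3 (5.13), Gal3st1 (1.47), Cmtm5 (7.06) and Lgi4 (0.99), with a list median of 0.30 against 0.02 over all genes. That share is near the 29.3% of all genes called in this comparison, Gal3st1 lost its call in 5 of 11 alternatives, and 11 of the 12 chondrocyte genes were called higher over the same days.

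Of 18 genes of non-myelinating and repair Schwann cells, 13 were tested, and 8 were called between DIO d3 and d21, 7 lower and Gfap higher (4.97), where 45.3% of all genes were called and 21.8% were lower. Those lower included Cdh19 (-2.62), Gap43 (-4.78), Artn (-1.84), a neurotrophic ligand, and Jun (-1.66), the factor of the repair state. From DIO d7 to d10, 6 of 13 were called, all lower, Cdh19, L1cam, Scn7a, Gfra1, Artn and Gap43 (-0.95 to -3.15), where 13% of all genes were called and 7.01% were lower. Gap43 lost its call in 5 of 11 alternatives and Gfra1 in 3. Among 9 genes around neuregulin signaling, Erbb2, the partner of Erbb3, fell by 1.65 ± 0.23 (log2, adjusted p = 2.7e-05) from DIO d3 to d21, with Egfr (-1.25) and Bace1 (-1.13), and Nrg4 rose (1.89), a call lost in 4 of 11 alternatives. From lean d3 to d10, 2 of the 7 tested were called, Nrg2 (-2.57) and Nrg4 (-2.39), both lower, a share near the 29.3% of all genes, and each call was lost in 2 of 11 alternatives. Erbb2 had means of 21.4, 30.7, 23.8 and 34.1 CPM on lean d3, d5, d7 and d10. Nrg3 had no counts in any library. Of 8 neurotrophin genes, Bdnf (-2.46), a neurotrophin, fell and the sorting receptor Sort1 (0.79) rose from DIO d3 to d21.

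Of 6 oligodendrocyte genes, the myelin cells of the brain and spinal cord, Mobp and Klk6 had no counts, Opalin and Olig2 had at most 2 counts per library, and the summed level was 0.104 to 9.14 CPM, and Myrf, the only one of them tested, fell from DIO d7 to d10 (-2.35). Of 6 melanocyte genes, a Sox10-expressing lineage, Tyr and Tyrp1 had 0 and at most 2 counts, while Mitf, which other cells express, had means of 13.1 to 21.7 CPM. Of 14 axon and neuron genes, 7 were tested. From DIO d3 to d21, 5 of them were called, where 45.3% of all genes were, 21.8% lower and 23.5% higher. Tubb3 (-3.52), Stmn2 (-2.77), Prph (-2.45) and Tac1 (-6.01) fell and Nefh (4.98) rose. Nefm had at most 2 counts in any library. Of 5 perineurial genes, which mark the sheath around nerve bundles, Krt23 had at most 2 counts and 3 were tested. On d7 only Slc2a1, which is used by many other cells, was called between the diets, where 2.32% of all genes were (1.4% higher). It was higher in DIO than in lean calli (89.3 against 26.8 CPM, adjusted p = 0.00549, edgeR). On that day Itgb4 had means of 14.5 CPM in DIO and 11.2 CPM in lean calli, and Cldn1 of 5.73 and 7.13 CPM. The 8 adipocyte genes had a summed level of 259 to 512 CPM on DIO d3, 208 to 314 CPM on d7 and 1095 to 1149 CPM on d21. The 8 marrow stromal and skeletal progenitor genes, among them the matrix genes Col1a1 and Postn, had sums that overlapped between days. These were 17128 to 30720 CPM on DIO d3, 20999 to 30811 CPM on d7 and 13833 to 25368 CPM on d21. Single genes of this list did change: 6 of the 8 were called from DIO d3 to d21, 3 higher and 3 lower. The part of the adipocyte and stromal genes in the levels of the members was not tested.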

How the data were processed

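RNA was measured by poly(A)-selected, stranded paired-end RNA-seq of 30 calli. The authors aligned reads to GRCm38 with HISAT2 2.1.0 and counted them per gene with HTSeq, and the deposited values are raw counts, 13247122 to 26365620 per library; the strand option and annotation are not given in the sources used here. With stranded reads, counts of Prx and its antisense neighbor depend on that option. CPM was computed from the deposited counts with TMM factors over all 30 libraries. Days were compared within a diet and diets within a day with edgeR 4.0.16 (quasi-likelihood, genes filtered by filterByExpr, SE from the F statistic), and p-values were adjusted by Benjamini-Hochberg over all genes tested, with a threshold of 0.05. DESeq2 1.42.0, other normalization, no filter, a replicate block, 1 fit of all libraries and leaving out each library were alternatives. Pairs of members were tested with 100000 permutations of log2 CPM (prior count 2).

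Groups followed the labels. Replicates are separate mice, and no 2 libraries of a group agreed within sampling noise (chi-square per degree of freedom 12.8 to 148 over 30 pairs). Replicate numbers are shared between groups of different mice. Deviations of same-numbered libraries correlated above 0.1 in all 3 pairs only for lean d7 against d5 (0.277, 0.204 and 0.24), which had 0 genes called without the block. Tested on simulated counts, the lean d10 against d7 fit found 34 of 100 genes changed 2-fold and 80 of 100 changed 4-fold, with 4 false calls. Over all 5 simulated fits 12 to 46 of 100 and 65 to 86 of 100 were found, with 3 to 11 false calls, and the lowest of these shares, 12 and 65 of 100, were those of the diet by day fit. All 8 members are named, though not in every comparison, with the 3 genes most like each and, from other lists, genes called in the comparisons described. The members and the 13 gene lists were chosen with earlier results of these data known. Some genes of these lists are not reported here.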

Additional observations from a re-analysis of the deposited data

Results flagged for a closer look

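For 3 members every DIO library lay on one side of the lean libraries on one day and on the other side on another day. Of all 17357 expressed genes, 1105 (6.37%) did so between any of the shared days. Mbp was above the lean libraries on d10 (log2 fold change 0.501) and below them on d5 and on d7. Pmp22 was above them on d5 (0.275) and on d7 (0.763) and below them on d10. S100b was above them on d7 (1.17) and below them on d10. The difference between these pairs of days alone was not tested, and the edgeR test over d3 to d10 gave adjusted p-values of 0.133 for Mbp, 0.0773 for Pmp22 and 0.115 for S100b.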

How the results depend on the processing

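Of 40 results on single members, 40 kept their direction and side of the threshold with DESeq2's size factors in edgeR, 37 without a filter, 37 with the replicate block, 35 in DESeq2 and 37 in 1 fit of all 30 libraries, and none turned its direction in any of these or in the fits without 1 library. DESeq2 called 2 members instead of 1 for lean d10 against d7, 1 instead of 0 for DIO d5 against d3, 3 instead of 0 for DIO d7 against d5, 1 instead of 0 for DIO d21 against d14 and 3 instead of 0 for diet by day. Without a filter DIO d7 against d5 called 2, and with the replicate block DIO against lean on d7 called 1 instead of 2. The block also ended the calls of Prx between any lean days (adjusted p = 0.0637) and from DIO d3 to d21 (0.0502), and changed no other member's call. Leaving out 1 library at a time gave 0 to 1 members for lean d10 against d7, 0 to 5 for lean d10 against d3, 2 to 6 between any lean days, 0 to 1 for DIO d5 against d3, 0 to 1 for DIO d7 against d5, 2 to 4 for DIO d10 against d7, 0 to 1 for DIO d21 against d14, 4 to 6 for DIO d21 against d3, 5 to 7 between any DIO days, 0 to 3 for DIO against lean on d7 and 0 to 2 for diet by day. The cause of these changes was not tested.

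Over all genes, the block called 1479 instead of 450 for lean d10 against d7, 199 instead of 74 for lean d5 against d3, 325 instead of 0 for the diets on d3, 0 instead of 170 on d5, and 45 instead of 129 for DIO d14 against d10. DESeq2 called 1827 for lean d10 against d7, 575 instead of 285 for DIO d5 against d3, 346 instead of 3 for DIO d7 against d5 and 1151 instead of 282 for diet by day, and 271 passed without a filter for DIO d7 against d5. Sox10, with 2 to 51 counts per library, is the member whose depth limits its values most.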
